A study of Mus musculus with 18 samples.

Results

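Genes of the basal transcription machinery were described in cells isolated from mouse ileum: the subunits of RNA polymerase II and III, the mediator complex, the TATA-binding protein-associated factors (TAFs) and the general transcription factors of the TFII series. They were chosen by their names on the array, symbols that begin with Polr2, Polr3, Med and a digit, Taf and a digit, or Gtf2. Of 93 genes with such a name, 89 were detected (a probe well above background on 5 or 6 arrays in some group), out of 21542 genes that passed the same filter. The other 4 were Taf1a, Taf9b, Gtf2a1l and the antisense transcript Med9os, which no probe measured well above background on 5 arrays of a group. A gene is represented by its brightest probe, and the remaining probes are given where they bear on the result.

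The study asked how an intestinal deletion of the coactivator Pgc1α changes the response to a Western-type diet. All mice carried floxed Pgc1α alleles on a C57BL6/J background and were killed at Zeitgeber time 3 after an overnight fast. The methods give littermates of 8 weeks of age at the start and 8 weeks of diet. The labels name the groups iPGC1afl/fl CHOW, iPGC1afl/fl HFD and iPGC1a-/- HFD, with 6 arrays in each, and they are written here as Pgc1α fl/fl chow, Pgc1α fl/fl HFD and iPgc1α-/- HFD. The HFD was a diet with 42% of its energy from fat and 0.2% cholesterol. In iPgc1α-/- mice a Cre recombinase under the Vil1 (villin) promoter, which is active in intestinal epithelium, removes exons 3, 4 and 5 of the gene, so other ileal cells keep it. Chow-fed iPgc1α-/- mice are not part of this description. The cells were released from the ileum in a chelating buffer and collected in bulk, and the study describes each array as one animal. The targeted gene did not read lower where the label is iPgc1α-/-. The brightest Ppargc1a probe read 10.94 ± 0.46 on chow, 11.38 ± 0.07 in Pgc1α fl/fl HFD and 11.67 ± 0.26 in iPgc1α-/- HFD (normalized log2 signal, mean ± SD, n = 6 each), and a second probe also read higher. Neither probe passed between the genotypes (limma adjusted p = 0.573 and 0.494). Whether these probes lie in the deleted exons was not determined here, and a probe outside them checks nothing about the deletion. The study itself checked the deletion by RT-qPCR of Pgc1α in the intestinal tracts. It also reports lower ileal RNA of Pgc1α target genes and lower respiration of isolated enterocytes in iPgc1α-/- mice.

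RNA polymerase II transcribes protein-coding genes, and RNA polymerase III transcribes tRNA, 5S rRNA and other short RNAs. At a Pol II promoter, TFIID (the TATA-binding protein and its TAFs), TFIIA and TFIIB bind first, TFIIF brings the polymerase, TFIIE and TFIIH open the DNA, and mediator carries signals from activators to the polymerase. Mediator has head, middle and tail modules and a separable kinase module. Its subunit Med1 binds nuclear receptors and PGC-1α. Most of these genes are expressed in nearly every cell, while a few, such as Taf4b and Polr3g, are forms with narrower expression. Ileal epithelium renews itself within days from dividing crypt cells.

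On HFD the changes in this machinery were small and mostly downward. Of the 89 genes, 16 fell and 3 rose between Pgc1α fl/fl chow and Pgc1α fl/fl HFD (limma, adjusted p of 0.05 or lower over all probes). These are 18% and 3.37% of the members. Among all genes tested, 14.2% fell and 10.4% rose, so the share that fell was near the background and the share that rose was below it. The median change of the members was -0.09 log2 units, against 0.00 over all genes, and 66 of the 89 were below 0, or 74.2% against 49.5% of all genes. Centring each array's median signals on the 75th percentile gave 10 members lower and 6 higher. Of all 21542 genes, 2286 were called lower and 2313 higher by that scaling. The processed signals centred in the same way gave 9 members lower and 6 higher, against 2876 and 2394 of all genes. Quantile normalization gave 14 lower and 6 higher, the same after normexp background correction 16 lower and 6 higher, and the authors' normalized values 14 lower and 5 higher. Over all genes, quantile normalization called 2785 lower and 2569 higher, and with normexp correction 2901 lower and 2621 higher. The count of members that fell also rested on single arrays: it was 6 without Pgc1α fl/fl chow replicate 4, 6 without Pgc1α fl/fl HFD replicate 2 and 5 without Pgc1α fl/fl HFD replicate 3. Only Gtf2ird1 passed both the threshold and a change above 1.5-fold, where 5.2% of all genes fell and 3.22% rose by that rule. Of the 19 called members, 8 kept the call whichever array was left out: Gtf2ird1, Taf1b, Polr3d, Polr2m, Gtf2f1, Polr3c, Gtf2e1 and Med22. Gtf2f1 lost it with both kinds of signal centred on the 75th percentile. Med22 is counted among the 3 that rose, but it was detected on 5 or more arrays only in Pgc1α fl/fl HFD, where it read highest, so its call is no sign of a stable rise. All 19 moved in the same direction on each of the 3 slides, which hold 2 arrays of every group. They were called on these same arrays, so this agreement is no independent check.

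**Figure D1:**
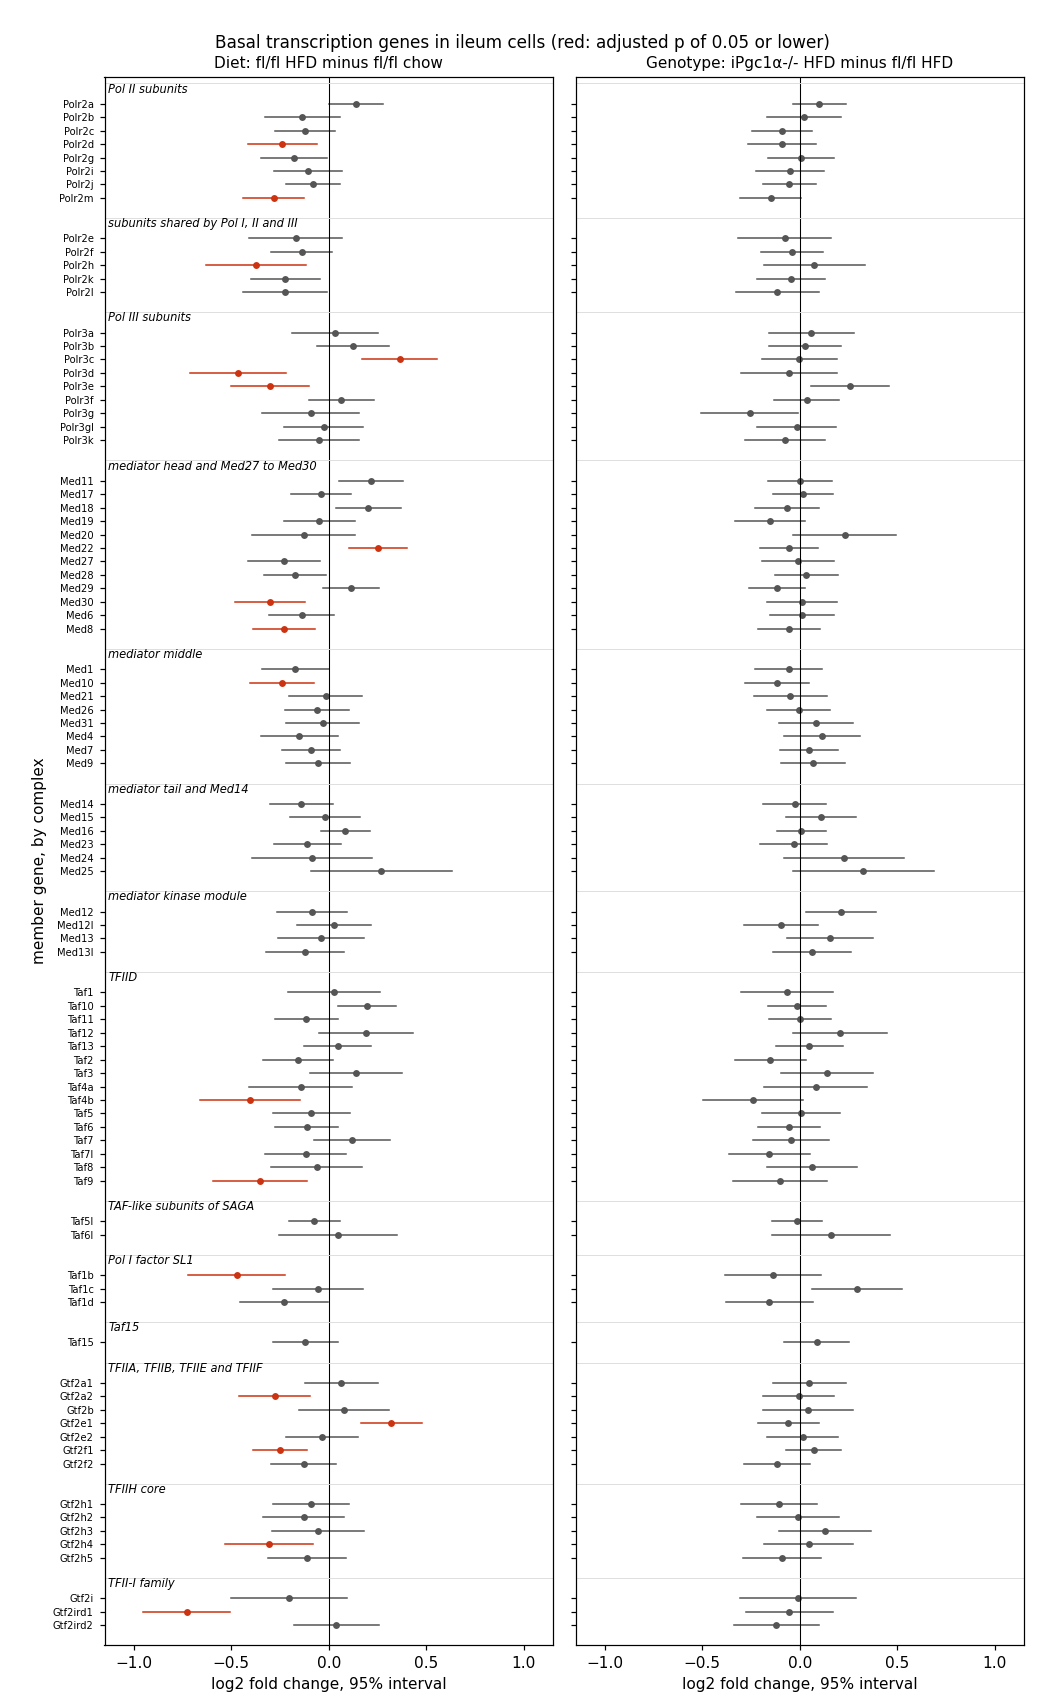
Each row is one of 88 of the 89 genes, ordered by complex, and the points give the log2 fold change with its 95% confidence interval from the limma fit, for diet on the left (Pgc1α fl/fl HFD minus Pgc1α fl/fl chow, n = 6 each) and for genotype on the right (iPgc1α-/- HFD minus Pgc1α fl/fl HFD, n = 6 each). Red marks an adjusted p of 0.05 or lower: 18 of the genes drawn on the left, with Gtf2ird1 furthest from 0 at -0.73, and none on the right.

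Markers of other cells in the ileum moved with the diet as well, where 14.2% of all genes fell and 10.4% rose. All 5 measured B cell markers fell, as did 5 of 6 of T cells and intraepithelial lymphocytes, 4 of 4 of plasma cells, 4 of 4 of goblet cells, 5 of 9 of crypt and dividing cells and 2 of 3 of macrophages and dendritic cells. The summed signal of the B cell markers ranged from 607 to 3490 on chow, from 214 to 1170 in Pgc1α fl/fl HFD and from 350 to 827 in iPgc1α-/- HFD. That of the T cell markers ranged from 14200 to 47000, from 6770 to 10900 and from 8400 to 13100. The markers of crypt and dividing cells summed to between 10900 and 18400, between 6780 and 12200 and between 7080 and 9270. Those of this list that did not pass with diet were the crypt markers Lgr5 (0.29), Ascl2 (0.10) and Olfm4 (-0.23), and Aurkb (-0.44). Goblet markers summed to between 271000 and 356000, between 133000 and 297000 and between 176000 and 269000, and plasma cell markers to between 15200 and 22100, between 12100 and 14400 and between 11900 and 15600. The plasma cell sum mostly follows its brightest probe, that of Xbp1 (mean log2 signal 13.88 on chow), which changed by -0.34 with diet. Its other markers changed by -3.23 (Jchain), -1.68 (Mzb1) and -0.26 (Sdc1) on the log2 scale. The macrophage and dendritic cell markers Adgre1 and C1qa were below the filter. Of the 9 enterocyte markers, all were measured, Apoa4 and Alpi rose and Slc10a2, the ileal bile acid transporter, fell. A single marker each of Paneth, enteroendocrine and tuft cells fell, and none of the smooth muscle, fibroblast and erythrocyte markers passed the test. No marker of any list passed it between genotypes. In bulk samples fewer cells of a type and less RNA per cell cannot be told apart, and the part of the cell makeup in the changes of the transcription genes was not tested.

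**Figure D2:**
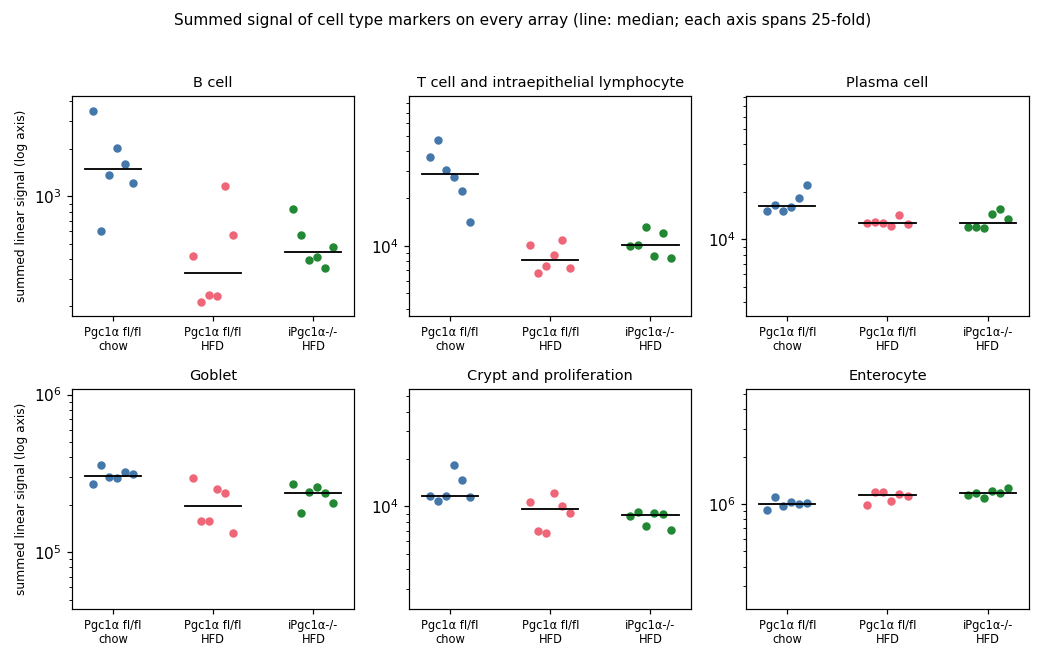
Each panel sums the linear normalized signal of one list of cell type markers, on a log axis, with a point for each of the 18 arrays and a line at the group median. T cell and intraepithelial lymphocyte sums on the 6 chow arrays (14200 to 47000) lie above all 12 HFD arrays, while the enterocyte sums of the groups lie close together.

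The largest change of any member was in the TFII-I family, factors with repeated helix-loop-helix-like domains whose 3 genes lie side by side on chromosome 5. Gtf2ird1, a DNA-binding regulator of this family, read 11.32, 11.31, 11.23, 11.45, 11.13 and 11.66 on the chow arrays. In Pgc1α fl/fl HFD it read 10.76, 10.42, 10.38, 10.98, 10.70 and 10.49, and in iPgc1α-/- HFD 10.68, 10.47, 10.37, 10.72, 10.53 and 10.63. Every chow array lay above every HFD array of either genotype. The fall with diet was 1.66-fold (log2 fold change -0.73, 95% interval -0.95 to -0.50, limma adjusted p = 5.62e-05), and it passed the threshold under all 32 alternatives run. Its 4 probes, spread over chromosome 5 between 134833559 and 134878909 (mm9, minus strand), each fell, by 0.73, 0.58, 0.50 and 0.44 on the log2 scale. Gtf2i itself, the founding member, changed by -0.20 (adjusted p = 0.328), and Gtf2ird2 by 0.04 (adjusted p = 0.825). The difference between the responses of Gtf2i and Gtf2ird1, taken within each array, was 0.53 log2 units (two-sided exact permutation p = 0.00649, adjusted p = 0.117 over the 18 tests on gene pairs given here), so it did not pass after adjustment.

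**Figure D3:**
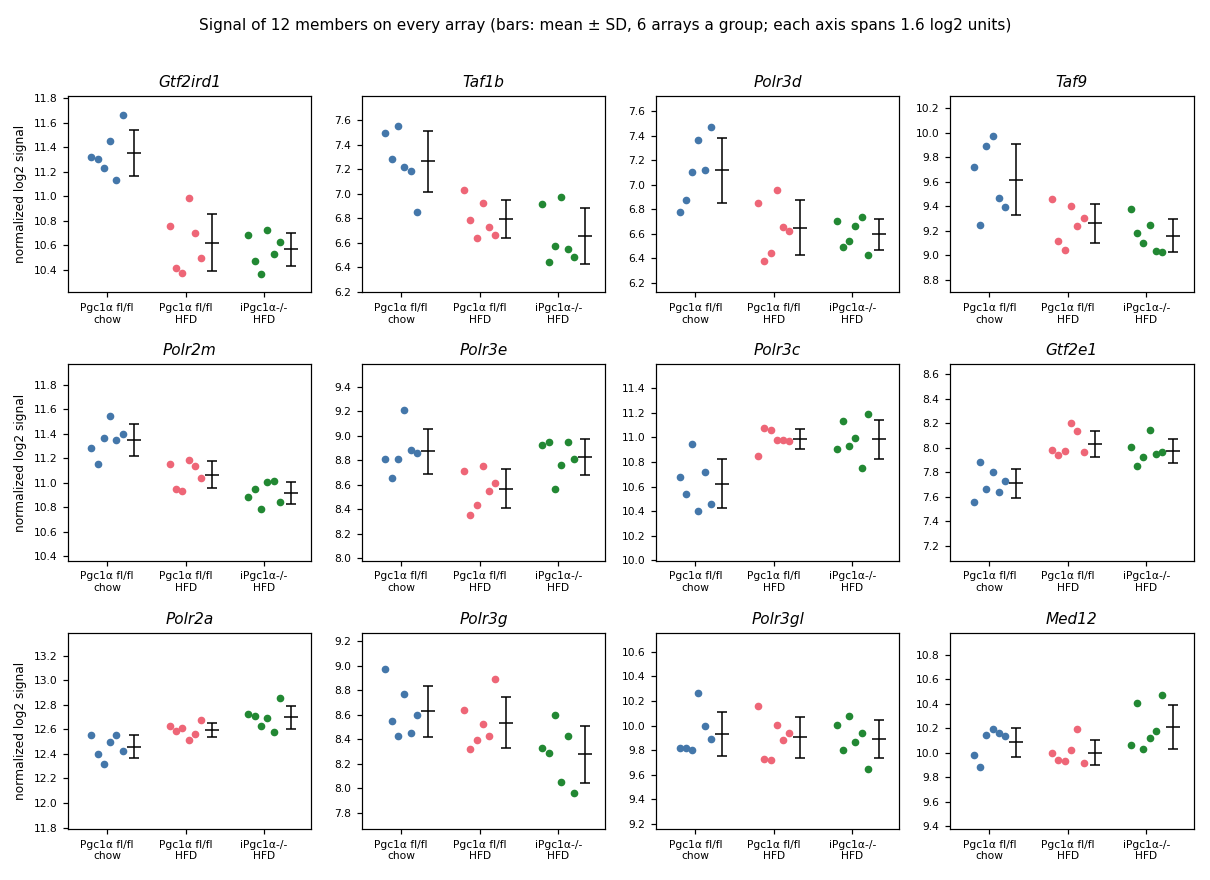
Points give the normalized log2 signal of the brightest probe of 12 members on each of the 18 arrays, with the mean ± SD of the 6 arrays of a group beside them, and all panels span the same log2 range. Gtf2ird1 separates chow from both HFD groups (chow 11.13 to 11.66, HFD 10.37 to 10.98), and Polr3c and Gtf2e1 read higher on HFD.

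In RNA polymerase III the called changes ran in both directions. Of the 10 subunits with a Polr3 name, 3 fell and 1 rose (30% and 10%, against 14.2% and 10.4% of all genes). The 2 large subunits that form the active centre were not among them, Polr3a at 0.03 (adjusted p = 0.862) and Polr3b at 0.13 (adjusted p = 0.329). Polr3c, which with Polr3f and Polr3g or Polr3gl forms the subcomplex needed for initiation, read 10.67, 10.54, 10.94, 10.40, 10.72 and 10.46 on chow and 10.85, 11.08, 11.06, 10.98, 10.98 and 10.97 in Pgc1α fl/fl HFD. All but the highest chow array lay below every Pgc1α fl/fl HFD array. It rose 1.29-fold (log2 fold change 0.36, 95% interval 0.17 to 0.56, adjusted p = 0.00725), and its other 2 probes also rose past the threshold. Its partner Polr3f did not pass the test (0.07, adjusted p = 0.593), nor did Polr3gl (-0.03, adjusted p = 0.875), a gene on the same stretch of chromosome 3.

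Polr3d and Polr3e, which pair with each other in a module that acts in initiation and termination, both fell. Polr3d read 6.78, 6.87, 7.10, 7.36, 7.12 and 7.47 on chow, 6.85, 6.37, 6.44, 6.96, 6.66 and 6.62 in Pgc1α fl/fl HFD and 6.70, 6.49, 6.54, 6.66, 6.74 and 6.42 in iPgc1α-/- HFD. The 2 lowest chow arrays lay within the range of Pgc1α fl/fl HFD, and the fall was 1.38-fold (-0.47, 95% interval -0.71 to -0.22, adjusted p = 0.00714), with a further probe also past the threshold. Polr3e fell 1.23-fold (-0.30, 95% interval -0.50 to -0.10, adjusted p = 0.0279).

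The 18 other genes of Pol III transcription examined were those of TFIIIA, TFIIIB, TFIIIC and the SNAP complex, and Maf1, Ssb and Crcp. Of these, 1 rose and 2 fell, or 5.56% and 11.1%, both below the 10.4% and 14.2% of all genes. The one that rose was Maf1, the repressor that binds Pol III and keeps it from its genes, by 0.31 ± 0.06 (log2 fold change ± SE, adjusted p = 0.00122). Snapc4, the largest subunit of the complex that starts U6 and other snRNA genes, fell by 0.52 ± 0.12 (adjusted p = 0.00487), and Ssb, the La protein that binds the ends of new Pol III transcripts, fell by 0.26 ± 0.07 (adjusted p = 0.0131).

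The sequence upstream of 3 of these genes and of Polr2a is printed for the members that moved most in each direction (Gtf2ird1 and Polr3c), for Polr3e, whose upstream sequence holds part of a Pol III gene, and for the catalytic subunit of Pol II. The stretches are the 250 bases before the RefSeq start in GRCm38.p6, on the gene's strand, 5′ to 3′. Capitals mark every match on either strand to short letter strings. The letters TATAAA were searched for the box bound by the TATA-binding protein. The letters CCGGAAG stand for sites of ETS factors, the letters GGGCGG for the box bound by Sp1 and the letters CCAAT for the box bound by NF-Y. The letters GTTCGAA are part of the B box, the promoter element inside tRNA genes.
Gtf2ird1 (chr5:134456717-134456966, minus strand): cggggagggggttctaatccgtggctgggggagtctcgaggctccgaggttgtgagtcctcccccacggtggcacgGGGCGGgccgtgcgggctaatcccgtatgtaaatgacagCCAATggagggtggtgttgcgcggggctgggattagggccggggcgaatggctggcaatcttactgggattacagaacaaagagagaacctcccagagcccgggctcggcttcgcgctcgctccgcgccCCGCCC
Polr3c (chr3:96727440-96727689, minus strand): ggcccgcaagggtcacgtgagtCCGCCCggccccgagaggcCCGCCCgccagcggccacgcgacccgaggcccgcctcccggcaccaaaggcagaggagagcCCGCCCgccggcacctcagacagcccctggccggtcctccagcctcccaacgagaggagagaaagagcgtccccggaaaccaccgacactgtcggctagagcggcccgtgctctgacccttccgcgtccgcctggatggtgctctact
Polr3e (chr7:120917528-120917777, plus strand): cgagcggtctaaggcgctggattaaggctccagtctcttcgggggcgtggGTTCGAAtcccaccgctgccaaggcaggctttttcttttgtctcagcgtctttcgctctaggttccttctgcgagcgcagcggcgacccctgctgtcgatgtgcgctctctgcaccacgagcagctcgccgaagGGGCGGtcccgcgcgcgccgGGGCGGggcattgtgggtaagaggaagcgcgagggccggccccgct
Polr2a (chr11:69758634-69758883, minus strand): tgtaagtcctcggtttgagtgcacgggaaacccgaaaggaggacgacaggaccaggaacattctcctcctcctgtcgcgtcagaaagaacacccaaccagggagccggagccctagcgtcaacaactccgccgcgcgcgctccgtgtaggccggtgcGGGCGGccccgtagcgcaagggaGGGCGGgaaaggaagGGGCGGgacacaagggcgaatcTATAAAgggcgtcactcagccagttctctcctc
RefSeq windows were found for 74 of the 89 members, 87 windows in all. GGGCGG was in 58.6% of the member windows and in 32.7% of all 32851 windows of this length, CCGGAAG in 23% against 6.91%, CCAAT in 32.2% against 33.8%, TATAAA in 13.8% against 12.4% and GTTCGAA in 2.3% against 0.502%. The median GC content of the member windows was 58.4%, against 52.4%. The 32851 windows were not limited to genes detected here, and some members have more than 1 window. GTTCGAA was in 2 member windows, 1 of them that of Polr3e. The Polr3e window is the only member window that overlaps a tRNA gene of the RefSeq annotation, where 8 of all windows do: n-TLaag4, a leucine tRNA gene of 82 bases on chromosome 7 from 120917517 to 120917598, ends 179 bases before the start of Polr3e.

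Pol II and the subunits it shares with Pol I and III fell or did not pass the test. Of 8 Pol II genes 2 fell (25%), and of 5 shared subunits 1 fell (20%), where 14.2% of all genes fell. The catalytic subunit Polr2a was the only one of these 13 genes with a value above 0, at 0.14 (95% interval 0.00 to 0.28, adjusted p = 0.131), and the second largest subunit Polr2b was at -0.14 (adjusted p = 0.307). All 5 shared subunits were below 0, from -0.14 to -0.37, and Polr2h passed (1.30-fold lower, adjusted p = 0.0335). The Polr2h call was lost with processed signals centred on the 75th percentile. Polr2m, which encodes the Gdown1 protein that binds Pol II and makes it depend on mediator, read 11.28, 11.15, 11.37, 11.54, 11.35 and 11.40 on chow and 11.15, 10.95, 10.93, 11.18, 11.14 and 11.03 in Pgc1α fl/fl HFD. The groups met only at the lowest chow array, and the fall was 1.22-fold (-0.28, 95% interval -0.44 to -0.13, adjusted p = 0.00978). Polr2d, which with Polr2g forms the stalk of the enzyme, fell by 0.24 on the log2 scale (adjusted p = 0.0465), and Polr2g was at -0.18 (adjusted p = 0.115). The call for Polr2d was lost under 7 of 14 processing alternatives.

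Among the general factors, the large subunits of TFIIE and TFIIF passed the test in opposite directions and their small subunits did not pass. Gtf2e1, the large subunit of TFIIE, which recruits TFIIH, read 7.56, 7.88, 7.66, 7.80, 7.63 and 7.73 on chow and 7.98, 7.94, 7.97, 8.20, 8.13 and 7.96 in Pgc1α fl/fl HFD. The groups did not overlap, and the rise was 1.25-fold (0.32, 95% interval 0.17 to 0.48, adjusted p = 0.00362), with a further probe that also rose past the threshold. Gtf2e2, the small subunit, was at -0.03 (adjusted p = 0.82). Gtf2f1, the large subunit of TFIIF, fell 1.19-fold, from 13.75 ± 0.03 to 13.50 ± 0.07 (SD, n = 6 each, adjusted p = 0.00976) with no overlap between the groups, and Gtf2f2 was at -0.13 (adjusted p = 0.261). The Gtf2f1 call was lost with median and with processed signals centred on the 75th percentile (limma adjusted p up to 0.108), where Gtf2e1 kept its call. The tests of the difference between subunits of a factor were not made. Gtf2a2, the small subunit of TFIIA, fell 1.21-fold (adjusted p = 0.0267), and all 3 of its probes were below 0. Its call too was lost with both kinds of signal centred on the 75th percentile. Gtf2b, the single subunit of TFIIB, was at 0.08 (adjusted p = 0.65). In TFIIH, the factor with helicase and kinase activity that also serves DNA repair, all 5 core members were below 0 and Gtf2h4 passed (1.24-fold lower, adjusted p = 0.0476), a call that was lost under 9 of 14 processing alternatives. Gtf2h1 was at -0.09 (adjusted p = 0.515). Of the TATA-binding protein, its regulators and the TFIIH partners, 1 of 10 passed the test and rose (10%, against 10.4% of all genes). This was the helicase Ercc3 of TFIIH, which rose by 0.26 ± 0.07 (SE, adjusted p = 0.0109).

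Of the 15 measured TFIID genes, Taf4b and Taf9 fell (13.3%, near the 14.2% of all genes that fell). Taf4b, a form of Taf4 known from germ cells and lymphocytes, fell 1.32-fold (-0.40, 95% interval -0.66 to -0.15, adjusted p = 0.0222), and Taf9, a histone-fold subunit that TFIID shares with the SAGA complex, fell 1.28-fold (-0.35, 95% interval -0.59 to -0.11, adjusted p = 0.0308). The Taf9 call was lost with processed signals centred on the 75th percentile. Taf1, the largest subunit, was at 0.02 (adjusted p = 0.901) and Taf4a, the common form of Taf4, at -0.14 (adjusted p = 0.447). The within-array difference between Taf4a and Taf4b was 0.26 log2 units (two-sided exact permutation p = 0.247, adjusted p = 0.529). The TAFs named Taf1b, Taf1c and Taf1d belong to SL1, the TATA-binding protein complex of Pol I rather than of Pol II. Taf1b, which binds Pol I, read 7.49, 7.29, 7.55, 7.22, 7.19 and 6.85 on chow and 7.03, 6.78, 6.64, 6.92, 6.73 and 6.66 in Pgc1α fl/fl HFD. Only the lowest chow array lay within the HFD range, and the fall was 1.39-fold (-0.47, 95% interval -0.72 to -0.22, adjusted p = 0.00678). Its other probe, near background at a mean log2 signal of 4.96, was at -0.05. Taf1d was at -0.23 (adjusted p = 0.132) and Taf1c at -0.06 (adjusted p = 0.753). Of 11 genes of Pol I and its factors, 3 (27.3%) fell and none rose, where 14.2% of all genes fell and 10.4% rose. Those that fell were the catalytic subunit Polr1a (-0.55 ± 0.15, SE, adjusted p = 0.00971) and the paired subunits Polr1e (-0.46 ± 0.12, adjusted p = 0.00715) and Cd3eap (-0.40 ± 0.12, adjusted p = 0.0163).

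Of the 30 mediator members, 3 fell and 1 rose, both smaller shares than the 14.2% and 10.4% of all genes, and no member of the tail or the kinase module passed the test. In the head, Med30 fell 1.23-fold (adjusted p = 0.0163) and Med8 1.17-fold (adjusted p = 0.034), both with no overlap between the fl/fl groups, and in the middle Med10 fell 1.18-fold (adjusted p = 0.0328). Med8 and Med10 each kept the call under 24 of the 32 alternatives. Both lost it with median and with processed signals centred on the 75th percentile. Med22 rose by 0.25, with no overlap (adjusted p = 0.0141), but its probe was well above background on 3, 5 and 4 of the 6 arrays of the groups, and it entered through the group where it read highest. With diet, 6 members had groups that did not overlap (Gtf2ird1, Gtf2e1, Gtf2f1, Med30, Med8 and Med22), as did 10.4% of all genes. Med1, the subunit through which nuclear receptors and PGC-1α act, was at -0.17 (95% interval -0.34 to 0.00, adjusted p = 0.143). The scaffold Med14 was at -0.14 (adjusted p = 0.204), and a dimmer probe of it did pass. Med15, Med23, Med12 and Med13 lay between -0.11 and -0.02, all with adjusted p of 0.356 or more. The probe for Med16 read 17.66 ± 0.08 on chow and a second probe 6.08 on average, and with diet these were at 0.09 and 0.01. None of the 3 mediator kinase genes passed the test, and of 26 genes of pausing and elongation, 1 rose (Ell2, 0.49 ± 0.15, SE, adjusted p = 0.021) and 2 fell (Larp7 and Supt5), or 3.85% and 7.69%, below the shares over all genes.

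**Figure D4:**
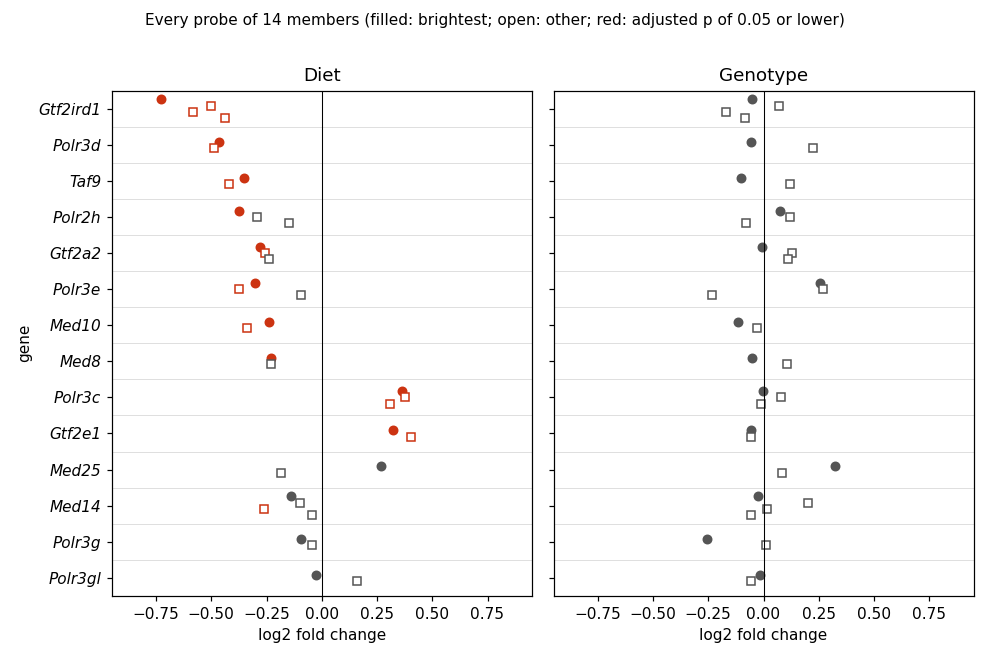
Each row holds all probes of a gene that passed the filter, at their log2 fold change with diet (left) and genotype (right), with the brightest probe filled and the others open and with red for an adjusted p of 0.05 or lower. The probes of Gtf2ird1, Polr3d, Polr3c and Gtf2e1 all pass with diet in 1 direction, while the probes of Polr3e point both ways with genotype.

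Other probes of the same genes gave the same direction. Of the 19 members called for diet, 11 had more than 1 probe past the filter, with 17 further probes. All 17 lay on the same side of 0 as the brightest, and 11 of them passed the threshold. Probes of a gene share the arrays and the RNA, so they check the probe and not the samples. Med14 and Taf15 were not called at the brightest probe but had another probe that passed.

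Between the genotypes on HFD no gene of this machinery was called. None of the 89 members, and none of their 173 probes, passed the threshold between iPgc1α-/- HFD and Pgc1α fl/fl HFD, where 0.227% of all genes did. At an unadjusted p under 0.05 there were 4 members, or 4.49%, against 9.29% of all genes. The largest value was 0.32 in size, and 85 of the 89 lay within 0.25 of 0. The 95% interval of 88 members lay within a 1.5-fold change in either direction, Med25 being the exception. Gtf2f2 alone had groups that did not overlap, with values that differed by -0.12 (adjusted p = 0.651), as did 0.961% of all genes. Med1 was at -0.06 (95% interval -0.23 to 0.12, adjusted p = 0.854), Med14 at -0.03 and Polr2a at 0.10 (95% interval -0.04 to 0.24, adjusted p = 0.64).

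The 5 members with the smallest p between genotypes were Polr3e, Taf1c, Med12, Polr3g and Polr2m, and all had adjusted p of 0.42 or more. Polr3e read 8.71, 8.36, 8.43, 8.75, 8.55 and 8.61 in Pgc1α fl/fl HFD and 8.93, 8.95, 8.56, 8.76, 8.95 and 8.81 in iPgc1α-/- HFD, and 8.87 ± 0.18 on chow. The groups overlapped, and the difference (0.26, 95% interval 0.06 to 0.46, adjusted p = 0.42) did not pass. Its other probes disagreed, at 0.27 and -0.23. Taf1c was at 0.29 and Med12, the kinase-module subunit that activates Cdk8, at 0.21 (adjusted p = 0.46), with a second Med12 probe at 0.41 (adjusted p = 0.357). Both genes read highest on iPgc1α-/- HFD replicates 2 and 6, as did Med25 below. Med20, Med24 and Taf6l were among further members that did so, with genotype values of 0.23, 0.23 and 0.16. On these arrays Taf1c read 9.05 and 9.22, against 8.65 to 8.87 on the rest of its group. Med12 read 10.40 and 10.47, against 10.03 to 10.18. Polr3g, the form of its subunit known from stem and dividing cells, was at -0.26 (adjusted p = 0.51), while Polr3gl, the form of differentiated cells, was at -0.02 (adjusted p = 0.972). The within-array difference between these 2 forms was -0.24 log2 units (two-sided exact permutation p = 0.013, adjusted p = 0.117), and that between Med12 and Med12l was 0.31 (p = 0.026 by the same exact test, adjusted p = 0.156). The 9 pairs were chosen after their values had been seen, and none of the 18 tests passed after adjustment. The second Polr3g probe was at 0.01.

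Set against Pgc1α fl/fl chow, where both diet and genotype differ, iPgc1α-/- HFD had 7 members higher and 22 lower, where 16.8% of all genes were higher and 20% were lower. With processed signals centred on the 75th percentile, 9 were higher and 16 lower. This comparison shares its arrays with both others. The 5 largest were Gtf2ird1 (-0.78, adjusted p = 2.05e-05), Taf4b (-0.64, adjusted p = 0.000507), Taf1b (-0.61, adjusted p = 0.000599), Med25 (0.59, adjusted p = 0.0117) and Polr3d (-0.52, adjusted p = 0.00204). Groups did not overlap for 7 members, as for 16.2% of all genes, and these included Polr2a, which was higher (0.24, adjusted p = 0.00791), and Polr2m and Med10, which were lower. Polr3g (-0.35, adjusted p = 0.0278) and Med1 (-0.23, adjusted p = 0.0381) were lower too. Polr3g kept this call under 26 of the 32 alternatives (adjusted p up to 0.0799). Med1 kept it under 19 (up to 0.131), and lost it with both scalings to the 75th percentile, with normexp background correction, in a fit of only the groups compared, and without any 1 of 8 arrays. Med25, a mediator subunit bound by viral and nuclear receptor activators, read 9.53, 10.51, 9.71, 9.74, 9.60 and 10.71 in iPgc1α-/- HFD. The high group mean came mostly from replicates 2 and 6, and a second Med25 probe was at -0.10 (adjusted p = 0.439). Of the role genes, Polr2b, Polr3a, Polr3b, Polr3gl, Med12, Med13, Med14, Med15, Med23, Taf1, Taf4a, Gtf2b, Gtf2h1 and Gtf2i did not pass in this comparison.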

How the data were processed

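RNA of ileal cells was labelled with Cy3 and hybridized to Agilent 1-colour arrays with 60-base probes. The authors extracted the deposited intensities with Agilent Feature Extraction 10.10.1.1, as given in the submitters' processing notes; a deposited table holds the authors' own normalized log2 values of 33095 probes (column median 7.44), which served as an alternative. Here the median spot intensity was taken as log2 without background subtraction, control and outlier spots were left out, spots of a probe were averaged, and the 32726 probes detected well above background on 5 or 6 arrays in some group were normalized by smooth quantile normalization (own code, window 0.05). limma 3.58.1 (R 4.3.3) fitted the 3 groups in one model of 18 arrays, with Benjamini-Hochberg adjustment over all probes. Log2 signal is relative to the array, so levels of different probes were not compared. The correction for washing bath and labelling described in the methods could not be repeated, because the labels do not name these batches. Probe coordinates are those of the array files (mm9); the exons they lie in were not determined here. Of the arrays, 56.3% to 62.3% of spots were well above background and none were saturated, and the number of arrays limits the precision. Genes were named by rule: for diet the called members with the largest changes, at most 6 for each complex; for genotype the 5 smallest p; for the combined comparison the 5 largest called changes; and a fixed set of genes with a central role. The members and all gene lists were chosen with earlier results of these data known. The statistics were tested on simulated data. No table of the authors' fold changes was used. The values of 1 member are not reported here, though the counts include it.

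Same-numbered arrays of different groups did not deviate together in every pair, so the numbers were not taken to pair them. Alternatives covered the signal, normalization, filter, blocks, array weights, variance model, probe choice, call rule and each array left out.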

Additional observations from a re-analysis of the deposited data

Results flagged for a closer look

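Among the 38 named genes, the values of each group were examined for a single array that stood far from the other 5 (114 tests of a gene in a group, Dixon's criterion at the 95% level, which chance meets in about 1 of 20). In 2 of them it did. Polr2b read 9.59 on Pgc1α fl/fl chow replicate 4, above the next chow array at 9.33. Med1 read 9.80 on Pgc1α fl/fl chow replicate 3, below the next chow array at 10.12. Neither gene was called for diet or genotype.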

How the results depend on the processing

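No named result that was called, here or under an alternative, reversed in any of the 32 alternatives, and all 19 members called for diet kept their direction throughout. The number of members higher on HFD (3) was 6 with processed signals or median signals centred on the 75th percentile, 6 with quantile normalization alone or after normexp background correction, 5 with the authors' normalized values and 5 with array weights. The number lower on HFD (16) was 9 with processed and 10 with median signals centred on the 75th percentile. Over all 21542 genes, these scalings called 2876 and 2286 lower, and 2394 and 2313 higher. With a fold change above 1.5 also required, 0 members were higher and 1 lower with diet, and 1 higher and 3 lower in the combined comparison. Leaving out each array in turn gave 3 to 4 members higher and 5 to 17 lower with diet, 0 changed between genotypes each time, and 5 to 8 higher and 15 to 26 lower in the combined comparison. In the combined comparison, the 15 lower were reached without iPgc1α-/- HFD replicate 6. The low counts of members lower with diet came without Pgc1α fl/fl chow replicate 4, which ended 10 of the 19 diet calls (limma adjusted p from 0.0569 to 0.133), without Pgc1α fl/fl HFD replicate 2, which also ended 10 (0.0511 to 0.134), and without Pgc1α fl/fl HFD replicate 3, which ended 11 (0.0528 to 0.135). The marker sum of crypt and dividing cells was the highest of its group on chow replicate 4 (18390). It was lowest of its group on the Pgc1α fl/fl HFD replicates 3 and 2 (6783 and 6938). These HFD arrays also had the lowest shares of spots well above background in their group (56.8% and 56.3%), while chow replicate 4 had 60.2%. Pgc1α fl/fl HFD replicate 6 had a close share of 57%, and leaving it out ended 4 calls. Whether cell makeup or detection accounts for the lost calls was not tested. With the replicate block, 16 members were lower and 3 higher with diet, 0 changed between genotypes, and 6 were higher and 22 lower in the combined comparison. Same-numbered arrays correlated in their deviations from the group means between -0.217 and 0.346, and not every array correlated best with its own number. Between genotypes no alternative called a member. The number of arrays limits precision, with a median SE of 0.09 log2 units over the members.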
